A study of Mus musculus with 4 samples.

Results

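SNARE and synaptic vesicle proteins were represented by 9 genes, Snap25, Syt1, Syt11, Cplx1, Cplx2, Syp, Vamp2, Nsf and Rab3a, of 8252 genes with a named probe set. A probe set is a group of oligonucleotides on an Affymetrix array that together give 1 signal, most often for 1 gene. Every probe set whose platform gene symbol was 1 of these 9 was taken, which gave 11 of the 12488 on the array. Vamp2 and Rab3a had 2 probe sets each and the other 7 genes had 1. The measurements were the authors' scaled intensities on 4 arrays of total RNA from hippocampal area CA1. All 4 samples came from young male C57BL/6J mice, an inbred strain, that an experimenter had handled and that received no other treatment. RNA was taken 1, 2, 4 and 6 h after other mice, not analysed here, had their last shock. Each hour had 1 array, so differences between hours have no replicate check, and the labels do not state whether a sample held RNA of 1 mouse or of several.

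These proteins release neurotransmitter. Vamp2 on the vesicle and Snap25 on the plasma membrane zip together with a syntaxin into the SNARE complex that fuses both membranes, Syt1 senses the calcium that triggers fusion, and complexins hold and then help the assembled complex. Nsf, an ATPase, takes used complexes apart, Rab3a is a GTPase that guides vesicles to the release site, Syp is an abundant membrane protein of the vesicle, and Syt11 is a synaptotagmin that does not sense calcium. All are found in neurons throughout the hippocampus, so CA1 tissue holds their transcripts both from pyramidal cells and from interneurons.

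Some of the 9 genes were level over the 4 arrays, and others stood high on the 2 h array alone. Of the 11 probe sets, 10 were bright enough to be compared, and the dimmer one of Rab3a was not. Syt1, Syt11, Cplx1, Syp and the dimmer probe set of Vamp2 had a 2 h signal at least 2-fold above every other array, which is 5 of 10 probe sets, where 2.06% of the 7237 compared on the whole array met the same rule. The brighter Vamp2 probe set and Snap25 ranged by under 1.5-fold over the 4 arrays, which is 2 of 10 where 46.4% of all did. Cplx2, Nsf and the brighter Rab3a probe set met neither description, and that of Rab3a was lowest at 2 h. The same 5 were at least 2-fold above 1 h at 2 h and 0 of 10 at least 2-fold below it, where 6.92% and 3.29% of all were. At neither 4 h nor 6 h did any member lie 2-fold or more off its 1 h signal (0 of 10, where 10.4% of all probe sets did at 1 or both of these hours). The words steady and high at 2 h describe the values of these 4 arrays and carry no test. Members and rules were chosen with earlier results of these data known, so the shares of all probe sets are no test of enrichment.

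**Figure D1:**
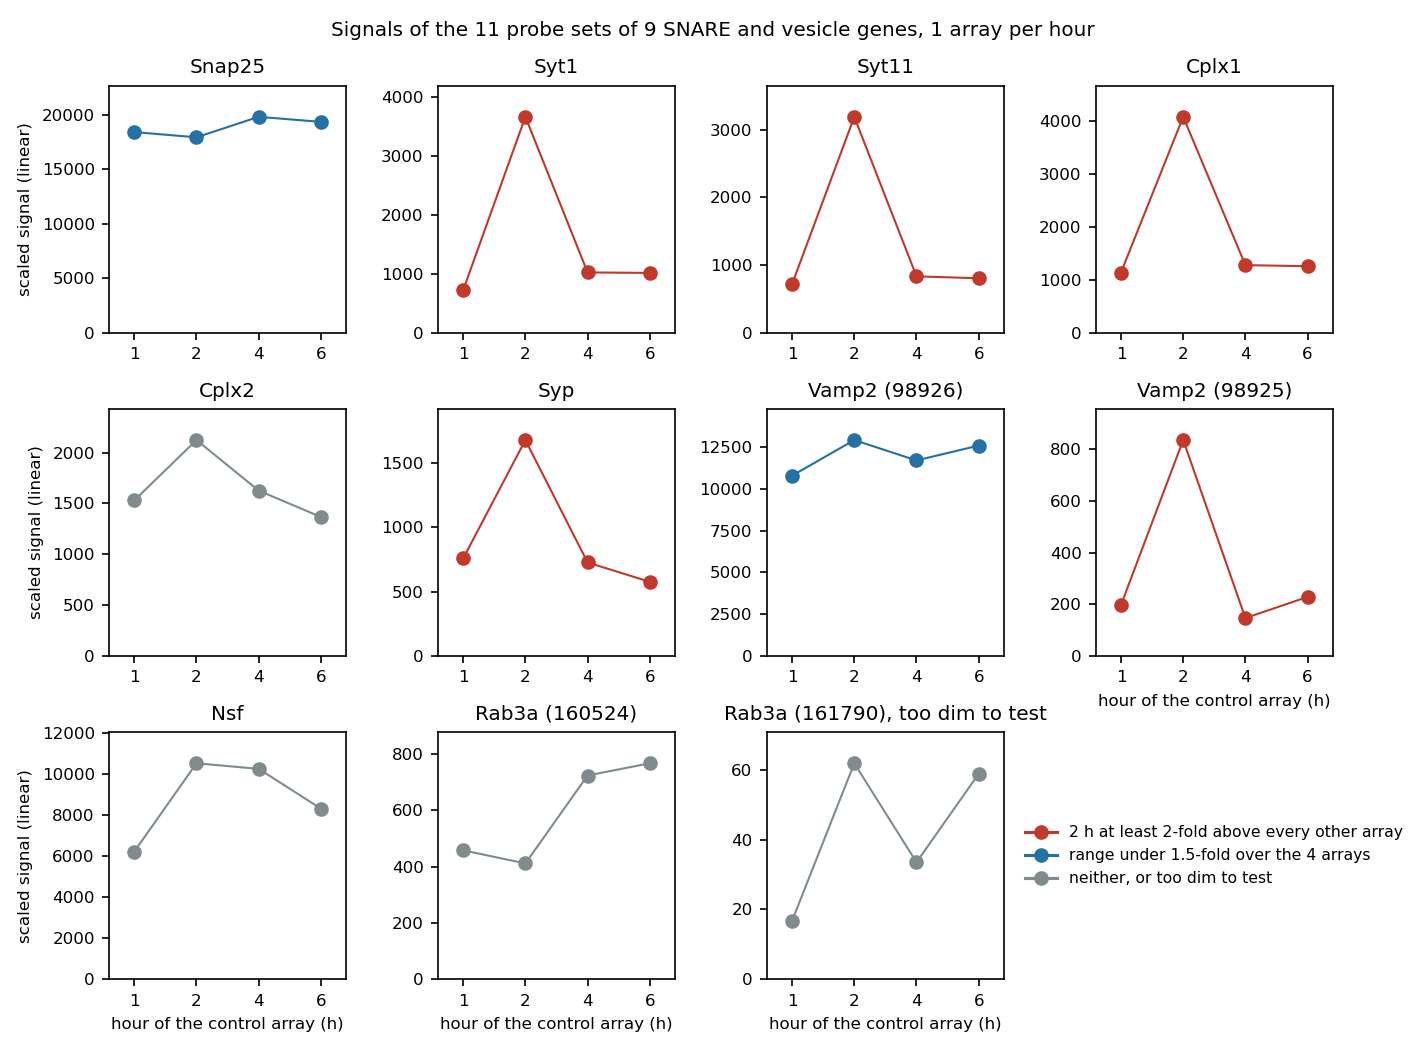
Scaled signal (linear axis from 0, a separate scale in each panel) of each of the 11 probe sets on the 1, 2, 4 and 6 h control arrays, drawn evenly spaced, with 1 point per array. The 5 red probe sets peak at 2 h by at least 2-fold, and the 2 blue ones, Snap25 and the brighter Vamp2, range by under 1.5-fold.

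The 2 h array differed from the others as a whole, and each 2 h value of a member should be read with this. The SD over probe sets of the log2 difference was 0.62 to 0.66 for pairs with the 2 h array and 0.54 to 0.55 for pairs without it. The 3' over 5' signal ratio of the Gapdh control probe sets, which falls when cDNA reaches farther from the 3' end, was 1.08 at 2 h and 3.62 to 4.10 on the other arrays, and that of beta-actin was 1.72 against 2.27 to 2.93. Signals at least 2-fold above every other array were found for 149 probe sets on the 2 h array, but for 5, 15 and 20 on the 1, 4 and 6 h arrays (0.0691%, 0.207% and 0.276%). The part of these differences in the members' values was not tested.

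The synaptotagmins had the largest 2 h over 1 h ratios among the members. Syt1, the calcium sensor of fast release, had signals of 722, 3671, 1024 and 1016 at 1, 2, 4 and 6 h. The 2 h array alone was high, and the other 3 lay within a 1.42-fold range (921 ± 172, SD, n = 3 arrays). The 2 h signal was 5.08-fold that at 1 h, a log2 difference of 2.35, and 3.58-fold that of the next highest array. Syt11, which has the synaptotagmin domains but does not sense calcium, had 716, 3190.0, 832 and 804. Its other 3 arrays were closer together, within 1.16-fold (784 ± 60.5, SD, n = 3 arrays), and the 2 h signal was 3.83-fold the next highest. By log2 excess over the next highest array, Syt11 ranked 17 and Syt1 ranked 27 among the 7237 probe sets.

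The complexin paralogues differed from each other. Cplx1 had signals of 1139, 4088, 1278.5 and 1259, so that only the 2 h array was high and the others lay within 1.12-fold (1225.5 ± 75.4, SD, n = 3 arrays). Its 2 h signal was 3.59-fold that at 1 h and 3.20-fold the next highest. Cplx2 had 1529, 2123, 1626 and 1366. Its 2 h array was also the highest, but by 1.31-fold over the next, while its other 3 arrays ranged over 1.19-fold. The log2 differences between 2 h and 1 h were 1.84 for Cplx1 and 0.47 for Cplx2. Whether the paralogues differ beyond the error of an array could not be tested with 1 array an hour.

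Syp, the vesicle membrane protein used as a marker of synapses, was the member nearest the 2-fold limit from above. It had signals of 758, 1679, 727 and 576. The 2 h array was 2.22-fold the next highest, a log2 excess of 1.15, and the other 3 ranged over 1.32-fold (687 ± 97.3, SD, n = 3 arrays). The nearest member below the limit was Cplx2, at 1.31-fold, with no member between them.

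**Figure D2:**
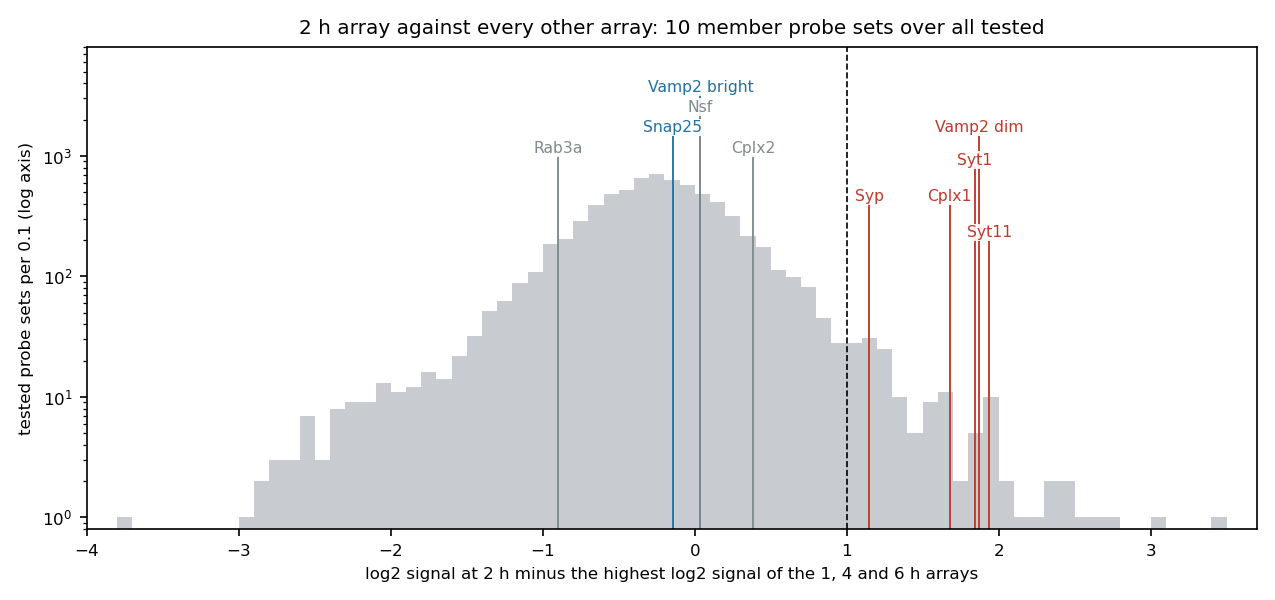
Grey bars count the 7237 tested probe sets (log axis) by the log2 signal at 2 h minus the highest log2 signal of the 1, 4 and 6 h arrays, and vertical lines mark the 10 member probe sets, coloured as in the plot of signals by hour. The dashed line is 2-fold, and 5 member probe sets lie to its right, from Syp at 1.15 to Syt11 at 1.94.

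Snap25, the plasma membrane SNARE, was the steadiest member. Its signals were 18421, 17938, 19821 and 19356, a mean of 18884 ± 858 (SD, n = 4 arrays), and the 2 h array was the lowest. The range over the 4 arrays was 1.10-fold. Snap25 and the brighter Vamp2 probe set were the closest of all member pairs, with a distance of 0.24 between their log2 signals once each was centred on its mean over the 4 arrays. The closest pairs among those high at 2 h were Cplx1 with Syt11 and Syt1 with Syt11, at 0.25 each.

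Vamp2, the vesicle SNARE, gave opposite pictures on its 2 probe sets. The brighter one (98926_at) had signals of 10783, 12915, 11696 and 12585, a mean of 11995 ± 958 (SD, n = 4 arrays). Its 2 h signal was the highest by 1.03-fold and the range was 1.20-fold. The dimmer one (98925_at) had 197, 837, 146.5 and 229. Here the 2 h array alone was high, 3.66-fold the next highest and 4.25-fold the 1 h array. The log2 differences between 2 h and 1 h were 0.26 and 2.09, a gap of 1.83 between probe sets of the same gene. Over the 864 genes with at least 2 tested probe sets, the median gap was 0.60, and 7.64% of these genes had a gap at least as wide as that of Vamp2. The call of Vamp2 as steady or as high at 2 h therefore depends on which probe set is read.

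The control probe sets of Gapdh, a glycolytic enzyme, read known parts of its transcript, and they too differed from each other between 2 h and 1 h. Its 5' probe set had 8721, 29261, 11961 and 10204 at 1, 2, 4 and 6 h, while its 3' probe set had 35720.5, 31659, 43352.5 and 40320.1. Between 2 h and 1 h the log2 difference was 1.75 at the 5' end, 0.88 in the middle and -0.17 at the 3' end. For beta-actin the same differences were -0.07, -0.23 and -0.48. The sources used here do not give which part of its transcript each member probe set reads, and whether this gradient moved the members was not tested.

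**Figure D3:**
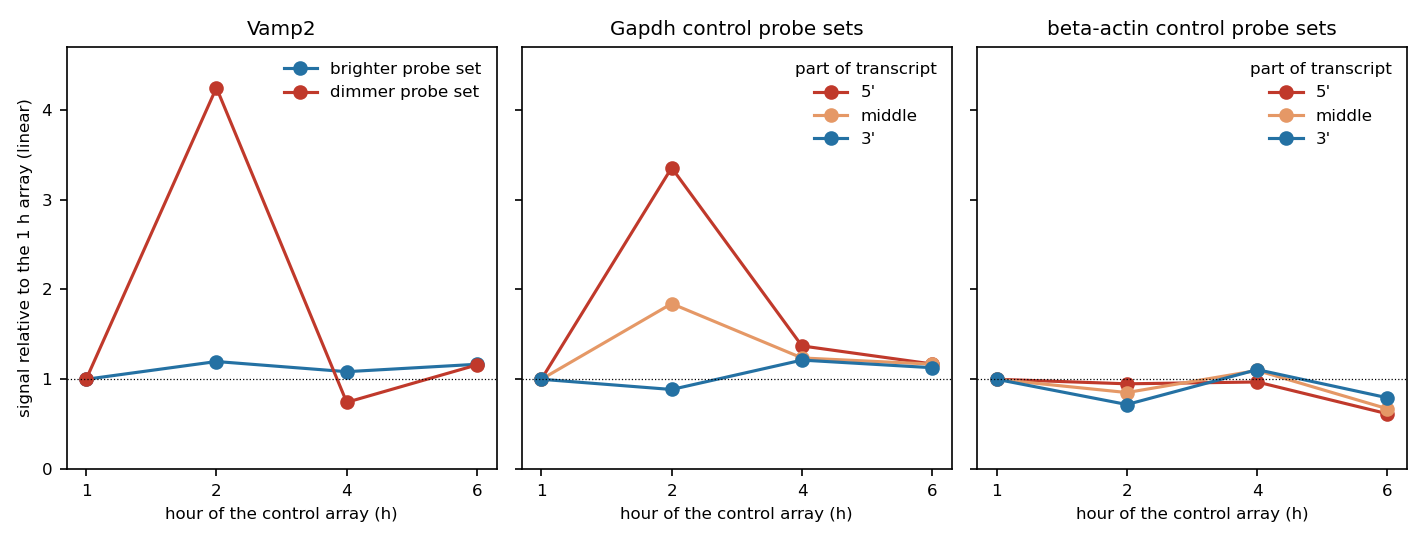
Signal on each control array divided by the 1 h signal of the same probe set (linear axis from 0) for the 2 probe sets of Vamp2 and for the 5', middle and 3' control probe sets of Gapdh and beta-actin, with 1 point per array. At 2 h the dimmer Vamp2 probe set reached 4.25-fold and the Gapdh 5' probe set 3.36-fold, while the brighter Vamp2 probe set was at 1.20-fold and the Gapdh 3' probe set at 0.886-fold.

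Nsf and Rab3a followed other courses. Nsf, which recycles SNARE complexes, had signals of 6213, 10522, 10250.2 and 8311, so the 1 h array was low and the 2 and 4 h arrays lay within 1.03-fold of each other. The 2 h signal was 1.69-fold and the 4 h signal 1.65-fold that at 1 h. Rab3a, the vesicle GTPase, had 458, 411, 724 and 768 on its brighter probe set (160524_at). The 4 and 6 h arrays were both above the 1 and 2 h arrays, with the 6 h signal 1.68-fold that at 1 h, and Rab3a was the member lowest at 2 h relative to the other arrays. Its dimmer probe set (161790_at) had 16.7, 61.9, 33.5 and 58.9, where the floor set on all signals was 36.8 and a mean of 116.4 was needed for comparison. It was high on the 2 and 6 h arrays, so the probe sets of Rab3a did not share an order, and the dimmer one is at a level where little can be read from it.

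No trend of a member passed the test over the hours, which with 4 arrays called no probe set at all. The slope of log2 signal per hour was tested with limma across all 7237 probe sets, and 0 of the 10 member probe sets passed, as did 0.00% of all, with a Benjamini-Hochberg adjusted p of 0.9996 for every member. At an unadjusted p under 0.05 there were 196 probe sets in all and 1 member, Rab3a, whose slope was 0.19 ± 0.07 log2 per hour (SE). The slopes of the other 9 ran from -0.17 for Syp to 0.05 for Nsf. Without the 1 h array there were 631 probe sets and 6 members at that unadjusted level, and 0 calls after adjustment. Without the 2 h array limma called 32 probe sets after adjustment, 0 of them members. At the unadjusted level there were then 420 probe sets in all and 2 members. Each fit without an array has fewer residual degrees of freedom than the fit on 4 arrays. A p that misses the threshold does not show that a trend is absent, and a straight line over the hours cannot judge a peak at 2 h.

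The promoters of genes that stood high together at 2 h are shown beside that of Cplx2, the paralogue that did not reach the limit. Each is the 250 bases before a RefSeq transcription start on build GRCm38.p6, in the direction of the gene, with the GC box (GGGCGG, or CCGCCC on the other strand), a site for Sp1-type factors, in capitals. RefSeq windows were matched for 7 of the 9 members, all but Snap25 and Vamp2. Syt1 had 2 starts, and the window of the one farther upstream is shown.
Syt1 (chr10:109010976-109011225, minus strand): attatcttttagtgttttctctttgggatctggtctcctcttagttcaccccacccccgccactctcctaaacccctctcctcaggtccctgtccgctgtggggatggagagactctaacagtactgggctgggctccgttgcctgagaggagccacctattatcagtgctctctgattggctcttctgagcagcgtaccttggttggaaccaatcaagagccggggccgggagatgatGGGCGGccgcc
Syt11 (chr3:88772600-88772849, minus strand): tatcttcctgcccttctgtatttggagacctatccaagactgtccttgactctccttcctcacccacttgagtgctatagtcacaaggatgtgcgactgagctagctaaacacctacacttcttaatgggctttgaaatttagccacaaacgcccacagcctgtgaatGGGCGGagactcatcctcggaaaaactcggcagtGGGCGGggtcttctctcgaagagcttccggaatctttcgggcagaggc
Cplx1 (chr5:108550028-108550277, minus strand): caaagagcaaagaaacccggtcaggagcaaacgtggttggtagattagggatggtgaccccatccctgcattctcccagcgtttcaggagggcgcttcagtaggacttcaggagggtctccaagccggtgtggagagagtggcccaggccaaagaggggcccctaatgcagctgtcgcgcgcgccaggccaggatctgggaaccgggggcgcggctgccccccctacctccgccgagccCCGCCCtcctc
Syp (chrX:7638330-7638579, plus strand): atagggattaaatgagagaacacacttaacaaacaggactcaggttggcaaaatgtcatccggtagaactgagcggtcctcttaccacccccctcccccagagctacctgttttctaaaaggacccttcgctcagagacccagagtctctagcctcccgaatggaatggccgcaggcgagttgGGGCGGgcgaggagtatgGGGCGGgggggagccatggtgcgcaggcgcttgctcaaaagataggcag
Cplx2 (chr13:54302306-54302555, plus strand): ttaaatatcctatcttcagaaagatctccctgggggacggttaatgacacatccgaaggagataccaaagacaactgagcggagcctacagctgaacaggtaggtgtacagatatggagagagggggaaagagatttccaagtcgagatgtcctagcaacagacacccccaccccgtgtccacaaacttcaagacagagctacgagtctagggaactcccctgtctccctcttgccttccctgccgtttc
A GC box was found in the windows shown for Syt1, Syt11, Cplx1 and Syp and not in that of Cplx2. It occurred once in Syt1 and Cplx1 and at 2 places each in Syt11 and Syp. It was absent from the other Syt1 window and from that of Nsf. Rab3a, the member lowest at 2 h relative to the other arrays, had it at 2 places in 1 of its 2 windows. Among all 32851 RefSeq windows of this length, 32.7% held it. Other motifs were searched on both strands in all 9 member windows: TATAAA, the TATA box, was in 0, CACGTG, an E-box, was in 1 (Nsf), and TGACG, the core of the cAMP response element, was in 1 (Rab3a). Their shares of all windows were 12.4%, 6.02% and 17.8%. TTCAGCACC, part of the site of the neuronal repressor REST, was in 0 member windows and in 0.301% of all. These are letter matches, not measured binding.

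Other SNARE and vesicle genes did not stand high as a group at 2 h. Their list is wider than transmitter release and includes SNAREs of the Golgi, such as Gosr1, Vamp4 and Ykt6. A list of 83 further SNARE and vesicle genes had 50 with a named probe set, of which 38 were bright enough, each taken by its brightest probe set. At least 2-fold higher at 2 h than at 1 h were 4 of 38, and 2 of 38 were at least 2-fold lower, where 5.70% and 2.98% of all 5546 genes compared were. By the same measure 4 of the 9 members were higher and 0 lower. Above every other array by 2-fold were 1 of 38 (Dnajc5) and 4 of the 9 members, where 1.37% of all genes were. The median log2 difference between 2 h and 1 h was -0.17 over the 38 genes, 0.76 over the 9 members and -0.01 over all genes. The members and the list were chosen with earlier results known, so this contrast describes values and carries no test. The count of 4 became 1 when dim probe sets were filtered more strictly, and 8 without a filter. The number of genes compared changes with the filter, and the shares of all genes at those settings are not given here.

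**Figure D4:**
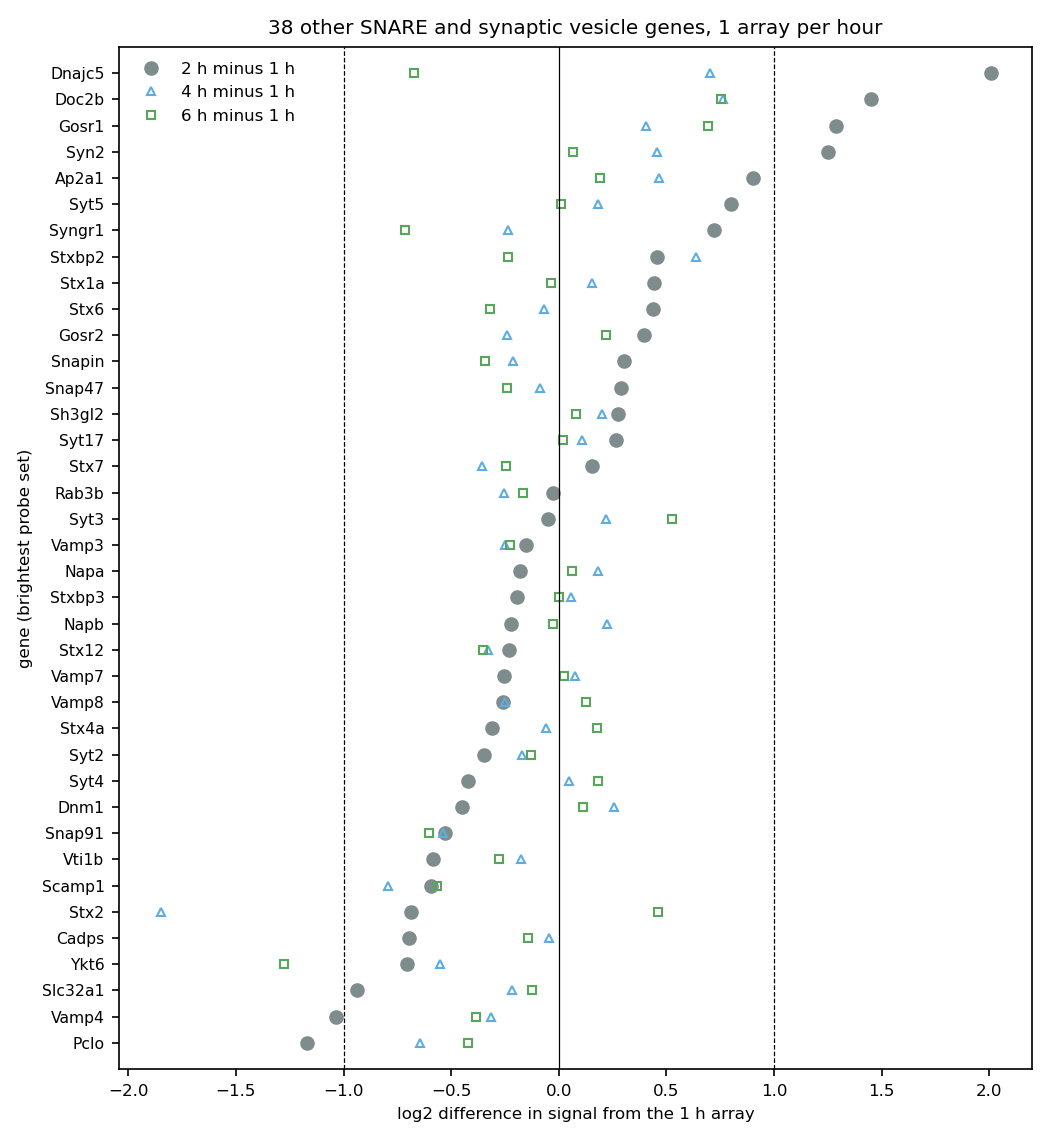
Log2 difference in signal from the 1 h array at 2 h (filled circles), 4 h (triangles) and 6 h (squares) for 38 SNARE and vesicle genes that are not members, 1 array per hour, ordered by the 2 h value. Dashed lines mark 2-fold, and 4 genes lie beyond it at 2 h on the right and 2 on the left.

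Among these, the chaperone of the vesicle membrane Dnajc5 was the highest at 2 h, with signals of 187, 750.4, 304 and 117. Doc2b, a calcium sensor of spontaneous release, had 144, 394, 245 and 243, and Gosr1, a SNARE of the Golgi, had 160, 391, 211.5 and 258. Synapsin 2, Syn2, which tethers vesicles to the cytoskeleton, had 1449, 3449, 1989 and 1516. All 4 peaked at 2 h, and for Doc2b, Gosr1 and Syn2 the excess over the next highest array was under 2-fold.
Next came Ap2a1, a subunit of the endocytic adaptor, at 1.87-fold the 1 h signal, the synaptotagmin Syt5 at 1.74-fold, the synaptogyrin Syngr1 at 1.65-fold and Stxbp2, a syntaxin-binding protein, at 1.37-fold.
At the other end, Pclo, a scaffold of the active zone, had 2848.5, 1268, 1819 and 2128, and Vamp4, a SNARE of the trans-Golgi, had 1116, 544, 896 and 854. The vesicular GABA transporter Slc32a1 had 3861, 2019, 3318 and 3543, and Ykt6, a SNARE of the Golgi and of autophagy, had 343, 210.4, 234 and 141.5. Pclo, Vamp4 and Slc32a1 were lowest at 2 h, Ykt6 at 6 h.

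Partners and relatives of the members were mixed. Stx1a, the syntaxin that pairs with Snap25 and Vamp2, had 979, 1332, 1090.4 and 954, highest at 2 h by 1.36-fold over 1 h. Napa, which brings Nsf to the SNARE complex, had 3491, 3077, 3962 and 3644.5, lowest at 2 h. Its relative Napb had log2 differences between 2 h and 1 h of -0.22 on its brighter probe set and 1.52 on its dimmer one. Syt4, a relative of Syt11 that also lacks calcium sensing in one of its domains, had 372.5, 278, 385 and 422, also lowest at 2 h. The Vamp2 paralogue Vamp1 was too dim to compare, and its probe sets had 70.5, 519, 46.5 and 15.8 on one and 83.7, 91.0, 34.4 and 118 on the other.

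The genes nearest in course were sought for the members whose brightest probe set ranged over 2-fold or more, which leaves out Vamp2. Likeness was the Euclidean distance between log2 signals, each centred on its mean over the 4 arrays. The search covered 5513 genes that are not members, of which 38 (0.689%) are on the list of SNARE and vesicle genes. Nearest to Syt1 were the sodium channel gene Scn8a (281, 1236, 399 and 380; distance 0.17) and the clock repressor gene Cry2 (0.18). Nearest to Syt11 were Rrp1, a ribosome assembly gene (442, 1831, 532 and 454.5; 0.15), and the glycolytic gene Pfkm (0.25).
Nearest to Cplx1 were the phosphatase gene Ppm1b (179, 635, 221 and 230; 0.19) and Rasgrp1, an activator of Ras (193.5, 636.5, 210.1 and 177; 0.21). Nearest to Syp were Rex1bd (425, 947, 364 and 294; 0.15) and Get3, which inserts tail-anchored membrane proteins (719, 1711, 844 and 601; 0.21). With 4 arrays these distances describe the same peak on 1 array and nothing more.

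Markers of all neurons had their highest summed signal at 2 h. So did those of thalamus and habenula, choroid plexus, CA3 pyramidal cells, astrocytes and microglia. In bulk tissue, more cells of a type and more RNA per cell cannot be told apart. The pan-neuronal list had a probe set for 9 of its 10 genes, none at 0, and 8 of the 9 were higher at 2 h than at 1 h, the least of them Nefh (817 at 1 h and 878 at 2 h), with Ncam1 level at 2738. Their summed signals were 25510, 38146, 24608 and 27093 at 1, 2, 4 and 6 h, so the 2 h sum was 1.495-fold that at 1 h. At least 2-fold above 1 h were 2 of 9, where 5.70% of all genes compared were: the neurofilament gene Nefm had 134, 573, 265 and 203, and the microtubule gene Map2 had 19.5, 656, 120.5 and 129. Map2 lay under the floor of 36.8 at 1 h and met the filter only through its 2 h signal. The 2 h over 1 h ratio of Syt1, Syt11, Cplx1 and the dimmer Vamp2 probe set (3.59 to 5.08), of Syp (2.22) and of Nsf (1.69) was above that of the neuronal sum. That of Cplx2 (1.39), of the brighter Vamp2 probe set (1.20), of Snap25 (0.974) and of the brighter Rab3a probe set (0.898) was below it.

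Markers of other cells and regions had no signal at exactly 0, but the interneuron gene Gad2, the dentate gene Prox1 and the myelin gene Cnp were under the floor of 36.8 on at least 1 array, and 2 of the 4 dentate granule genes with a probe set passed the filter. The CA1 pyramidal list had probe sets for 2 of 7 genes, with sums of 2778, 2500.2, 3248 and 2951. Of these, Wfs1 was lowest at 2 h (2293, 1877, 2484 and 2508), and Pou3f1 was higher at 2 h than at 1 h (484, 623, 764 and 443). At 2 h against 1 h, the summed signal was 1.53-fold for thalamus and habenula (6 of 6 genes with a probe set, 5 higher), 1.45-fold for choroid plexus (5 of 6, 4 higher), 1.27-fold for CA3 pyramidal (4 of 5, 2 higher), 1.26-fold for astrocyte (5 of 6, 4 higher) and 1.15-fold for microglia (5 of 5, 3 higher) markers. It was 0.997-fold for oligodendrocyte (5 of 6, 4 higher), 0.904-fold for interneuron (7 of 7, 2 higher), 0.84-fold for dentate granule (4 of 5, 0 higher) and 0.828-fold for blood (2 of 3, 1 higher) markers. At least 2-fold above 1 h were 2 of 5 choroid plexus, 1 of 6 thalamus and habenula, 1 of 7 interneuron and 1 of 2 blood genes. In the other lists of this paragraph 0 were, where 5.70% of all genes compared were. These counts include marker genes too dim to compare. The part of tissue composition in the members' values was not tested.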

How the data were processed

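The deposited table holds 1 intensity per probe set and array, scaled by the authors: after removal of 2% of values at each end, the 4 array means differed by 0.00197%. The sources used here do not name the software. Symbols came from the platform's annotation, updated through gene identifiers. Probe sets with several symbols (396) or none (1237) are not named. The 66 manufacturer controls were left out of the comparison, and those of Gapdh and beta-actin served as quality measures. Signals under the pooled 20th percentile (36.8) were set to it, log2 was taken, and the 7237 probe sets whose mean reached the pooled 40th percentile (116.4) were compared. Each hour in the sample titles was 1 group of 1 sample. Hours were compared by counting differences of 2-fold or more, with no test. limma tested a slope over hours on 2 residual degrees of freedom, adjusted p under 0.05, and the step was tested on simulated data. Every member probe set was named. Of the other SNARE and vesicle genes, the 8 highest and 4 lowest at 2 h against 1 h and fixed partners of members were named. For members whose brightest probe set ranged over 2-fold or more, the 2 nearest genes were named. Members, lists and rules were chosen with earlier results of these data known. Probe set levels are compared between arrays only, and the number of arrays limits precision. R 4.3.3, limma 3.58.1, Python 3.11.15 and pandas 2.3.3 were used.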

Additional observations from a re-analysis of the deposited data

How the results depend on the processing

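The alternatives covered normalization, floor, filter, probe sets, fold threshold, reference array, variance prior, time scale and leaving out each array. The 5 member probe sets high at 2 h were 2-fold or more above the reference under each alternative run for them. Changes of floor, filter or probe set type left their log2 differences as they were, so only normalization and reference moved them. The reference was the 1 h array or, in 1 alternative, the mean of the 1, 4 and 6 h arrays, with log2 differences of 1.72 to 1.89 for Cplx1, 1.02 to 1.30 for Syp, 2.01 to 2.39 for Syt1, 2.03 to 2.19 for Syt11 and 1.96 to 2.16 for the dimmer Vamp2 probe set. The dimmer Vamp2 probe set did not pass the stricter filter. The median log2 difference of the 9 members, 0.76, was 0.64 with arrays centred on their medians, 0.50 against the mean of the 1, 4 and 6 h arrays and 1.148 with the mean of all probe sets of a gene. The gap between the Vamp2 probe sets, 1.83, was 1.54 after quantile normalization and 2.01 against that mean, and the median gap was 1.37 without a filter, which adds Rab3a. At 1.5-fold, 2 member probe sets lay off the 1 h array at 4 or 6 h in place of 0, and 7 of the other SNARE and vesicle genes were higher at 2 h in place of 4. That count was 1 with the stricter filter, which compares fewer genes, and 8 without one, which compares more. The shares of all probe sets and genes at these settings are not given here, so these counts cannot be set against a background. Leaving out the 1, 4 or 6 h array in turn kept 5 probe sets above every other array. This step can add to that count but cannot lower it, so it is no check of the 5. The limma slope test called 0 members in each of 13 alternatives, those leaving out an array included. Centring on medians lowers each log2 difference between 2 h and 1 h by 0.12. No value at or past 2-fold changed sign. No paired analysis was possible because each hour had 1 array. With 1 array an hour, no setting replaces a replicate.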

Other observations

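Among the other SNARE and vesicle genes with more than 1 tested probe set, some gave different courses and some gave like ones. The examples were chosen after their values were seen. Napb, a partner of Nsf, had signals of 2322, 1990.1, 2708 and 2277 at 1, 2, 4 and 6 h on its brighter probe set and 472.5, 1358, 682 and 536 on its dimmer one, log2 differences between 2 h and 1 h of -0.22 and 1.52. Gosr2, a SNARE of the Golgi, had 873, 1148, 739 and 1017 on its brightest probe set, 993, 797.5, 893 and 924 on the next and 171, 320.2, 270 and 173 on the third, log2 differences of 0.40, -0.32 and 0.90. Cadps, a priming factor of dense-core vesicles, had 4468.5, 2758, 4335 and 4047 on its brightest probe set, lowest at 2 h, and 1333, 1385, 1288 and 1403 on the other, which was level. The probe sets of Vamp8 differed less, with log2 differences of -0.26 on the brighter and -0.46 on the dimmer, and those of Syt3 had -0.05 and -0.38. In the same order, Stxbp2 had 0.46 and 0.42, Dnm1 -0.45 and -0.04, Scamp1 -0.59 and -0.07, and Vamp4 -1.04 and -0.35.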
